A study of Drosophila melanogaster and Drosophila ananassae and Drosophila pseudoobscura with 52 samples.

Results

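The 39 sites described here were A-to-I RNA editing sites with an editing level of at least 2% in every one of 6 Drosophila species. They were chosen by these levels. For each species the larger of the male and female level was taken, and a site was kept when it was measured in all 6 species in at least 1 sex and this value was 2% or more throughout. Of 2380 listed sites, 947 had a level in at least 1 species and sex, 140 were measured in all 6 species, and 39 of these 140 met the limit. The levels came from targeted sequencing of amplified cDNA (mmPCR-seq) from whole bodies of adult flies 5 days old, with pooled bodies of 1 stock per species in each sample. The stocks were D.vir 15010-1051.09, D.pse 14011-0121.94, D.ana 14024-0371.13, D.yak 14021-0261.01, D.sim 14021-0251.011 and D.mel 14021-0231.69, each with males and females. The species D.vir, D.pse and D.ana also had a second round of targeted sequencing with primers of their own. A separate set of 16 libraries came from males of 8 inbred D.mel lines from the DGRP (Drosophila Genetic Reference Panel), numbers 26, 325, 352, 441, 721, 774, 786 and 804, with 2 libraries a line. The tables of the species give 1 value per species and sex, so these levels carry no error, and no table gives read counts, so the depth is unknown.

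In A-to-I editing the enzyme ADAR deaminates adenosines in double-stranded RNA to inosine, which is read as guanosine when the RNA is copied or translated. An edited adenosine usually lies in a stem formed with a complementary sequence of the same transcript, and several adenosines of 1 stem can be edited. In flies editing is known above all from transcripts of the nervous system, where it can change codons of ion channels and of proteins of synaptic transmission. The editing level is the percentage of reads with guanosine at the edited position.

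The amplicons of these sites were set by designed primers, shown here for sites whose levels are described later. The paper picked the loci for its primers by their editing level in RNA-seq data of adult D.mel. Of the 39 sites, 27 had a D.mel primer pair listed for their own position, and the other 12 lay 1 to 59 bases from the target of such a pair. Pairs of their own were designed at 9 of the sites for D.ana, at 10 for D.pse and at 14 for D.vir, and 6 sites had all of these. The sites below lie at X position 10640518, at 2L position 12724897 and at 3L position 16104689, and the last pair belongs to X position 14893957 (D.mel coordinates, build dm3). By the strand given with the primers, the 3L site is on the minus strand and the others are on the plus strand. Capitals mark the longest run that a primer of another species shares with either D.mel primer of that site, on either strand.
X 10640518, D.mel forward: gcatcatccatcacaactgc
X 10640518, D.ana forward: cattgGCATCATCCATCACAA
X 10640518, D.pse forward: catcgGCATCATCCATCACAA
X 10640518, D.vir forward: ggcattgggATCATCCATCA
2L 12724897, D.mel forward: caacattctacgatttccgctaa
2L 12724897, D.ana forward: CAACATTCTtcgttttccgtta
2L 12724897, D.pse forward: tcttcgtTTTCCGCTAAcaat
2L 12724897, D.vir forward: ttcgcTTTCCGttaaccatgt
3L 16104689, D.mel forward: ccaagacattctatcagcagt
3L 16104689, D.ana forward: aCCAAGACATTCTAccaacagt
X 14893957, D.mel forward: atgaaggctgacatatgtgttc
X 14893957, D.mel reverse: ccagaattgatcgccgaagac
The shared run was 11 bases in D.vir and 16 bases in both D.pse and D.ana at the X site, and it was 6 bases in D.vir, 10 in D.pse and 9 in D.ana at the 2L site. The runs describe the primers and not the edited bases. No annotation of build dm3 was used, and the sites are therefore given by position and not by gene.

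The 39 sites covered nearly the whole range of editing levels, and their order was similar in every species. Over the sites, the median level was 28.6% in D.vir, 26.2% in D.pse, 33.9% in D.ana, 28.8% in D.yak, 31.4% in D.sim and 26.4% in D.mel. The 101 sites that were measured in all 6 species but missed the limit had medians of 0.6% in D.vir, 0.65% in D.pse, 1.3% in D.ana, 3.25% in D.yak, 5.8% in D.sim and 5.6% in D.mel. The limit itself keeps low levels out of the 39, so this contrast is a description of the choice. The loci were picked by their editing in D.mel, and the order of these medians over species cannot be told apart from that. By their median over species, the 39 sites ran from 4.22% to 92.3%, and 8 of them stood at 50% or more in every species, 21 stood under 50% in every species and 10 crossed that line.

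**Figure D1:**
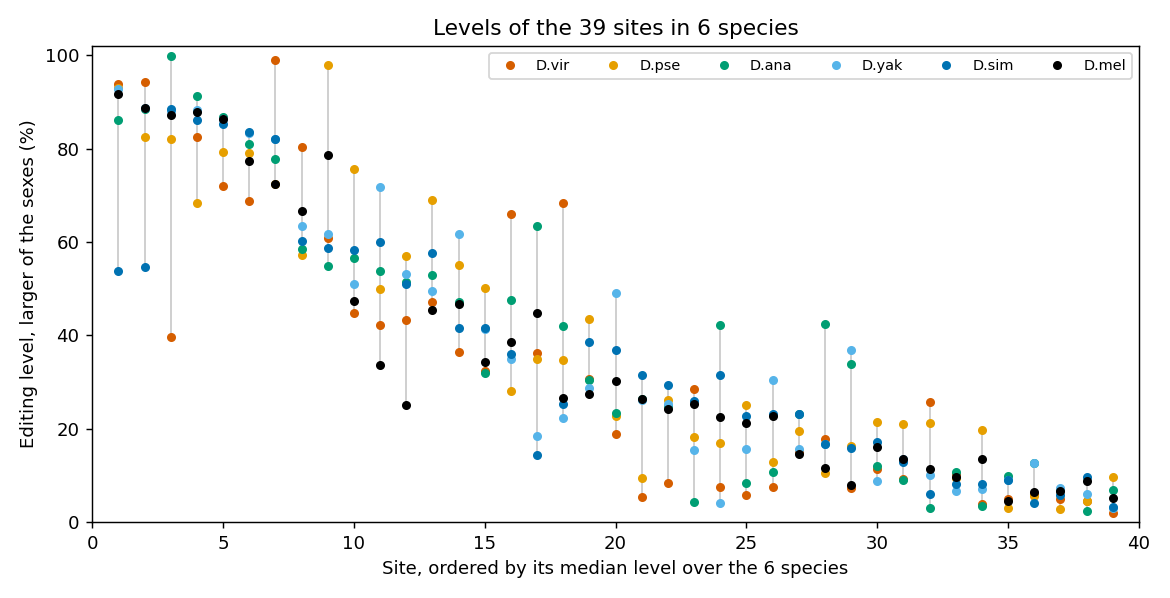
Editing level in percent (y axis, larger of the male and female level) of each of the 39 sites in the 6 species, with the sites ordered along the x axis by their median level. Each point is 1 species and the grey line spans the lowest to the highest species. The first 6 sites have medians over 80%, and 22 of the 39 sites stay at 10% or more in every species.

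The rank order held across the genus. Spearman's rho between 2 species over the 39 sites had a median of 0.859 over the 15 species pairs, with a lowest value of 0.811 for D.vir and D.sim and a highest value of 0.916 for D.pse and D.mel. Kendall's coefficient of concordance, which is 1 when all species give the same order, was 0.884. These values are descriptions across sites of the same 6 sets of libraries, and sites that share a transcript are not independent. The sites at 3L position 2925255 and at X positions 6002745, 14893901 and 14893957 were among the 10 highest in every species. The sites at 2R positions 4764295, 9697526, 9767879 and 20802382 were among the 10 lowest in every species.

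High levels throughout, by the larger of the sexes, were found at few sites. The 5 sites with the highest level in their lowest species were the 4 named above and the site at 2R position 10629097. At 3L position 2925255, on the plus strand, the larger level was 99.0% in D.vir, 72.4% in D.pse, 77.8% in D.ana, 82.2% in D.yak, 82.1% in D.sim and 72.4% in D.mel. The D.vir value came from females alone, and no male level was given there. At X position 14893957 the levels were 72.1% in D.vir, 79.3% in D.pse, 86.8% in D.ana, 86.3% in D.yak, 85.2% in D.sim and 86.3% in D.mel. D.vir was thus the lowest species at this site. At X position 6002745, on the minus strand, the lowest of the larger levels was 68.8% in D.vir, from females alone, and the highest was 83.5% in D.sim. D.ana males had 46.2% at this site, below all of these, and D.ana females had 81.0%. At 2R position 10629097, on the minus strand, the levels lay between 57.1% in D.pse and 80.2% in D.vir.

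Levels at single sites differed between species by a few to many percentage points. The range over the 6 species had a median of 23.1 percentage points, with a lowest range of 4.1 and a highest of 60, and the highest level was at most 2-fold the lowest at 15 sites and more than 4-fold at 11. These ranges can set males of 1 species against females of another. Within males the median range was 16.1 percentage points (26 sites with a male level in all 6 species), and within females it was 8.75 (17 sites). The widest range was found at 2R position 4771211. Its male levels were 26.6% in D.vir, 76.5% in D.pse, 99.8% in D.ana, 88.2% in D.yak, 88.5% in D.sim and 85.8% in D.mel. Its female levels were 39.8% in D.vir, 82.0% in D.pse, 99.3% in D.ana, 84.3% in D.yak, 85.6% in D.sim and 87.3% in D.mel. D.vir was therefore the lowest species in both sexes, below every other value of this site.

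The other wide ranges followed different species. At 3L position 4369422 the level was 68.5% in D.vir and between 22.3% in D.yak and 42.0% in D.ana elsewhere, and D.vir was the highest species in males (59.9%) and in females (68.5%). At 2R position 9697052, on the plus strand, D.pse males had 98.0% and the larger levels of the other species lay between 54.9% in D.ana and 78.7% in D.mel, with no female level in D.pse. At 2R position 17203191, on the plus strand, the level was 63.5% in D.ana and 14.3% in D.sim. Males had no level at this site in D.sim and D.yak, and D.mel had 44.8% in males and 14.8% in females, so species and sex cannot be told apart in that range.

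D.sim stood low at a pair of sites 30888 bases apart on 3R, both on the plus strand. At 3R position 20501385 males had 73.7% in D.pse, 88.5% in D.ana, 88.8% in D.yak, 54.6% in D.sim and 88.7% in D.mel. Females had 94.3% in D.vir, 82.5% in D.pse, 87.8% in D.ana, 68.95% in D.yak and 44.0% in D.sim, and D.sim was the lowest species in both sexes. At 3R position 20532273 D.sim had 53.8% in females and no male level. The other species had 75.8% to 93.0% in females and 86.2% to 93.8% in males, so the D.sim value was below all of them. The first of these sites entered through its line effect, described further on.

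A small range was also seen at some sites of middle level. At 3R position 14796414, on the plus strand, the levels were 15.1% in D.vir, 19.6% in D.pse, 23.1% in D.ana, 15.7% in D.yak, 23.1% in D.sim and 14.5% in D.mel, a range of 8.6 percentage points. At X position 14893971 the levels lay between 9.15% in D.ana and 21.1% in D.pse. At X position 14893953, on the plus strand, they lay between 8.75% in D.yak and 21.6% in D.pse. Among the sites with a median of 10% or more, the 5 smallest ranges belonged to these 3 sites and to X positions 14893957 and 6002745. These ranges use the larger of the sexes, and D.ana males at X 6002745 (46.2%) lay below that range.

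Near the limit, the values inside and outside it were close. The members nearest to it were at 2R position 9697526, with 2.0% in D.vir, at 2R position 20802382, with 2.5% in D.ana, and at 2R position 9767879, with 2.75% in D.pse. The nearest sites below it were at 2R position 5771665, with 1.95% in D.vir, at 2R position 5611069, with 1.75% in D.yak, and at 3R position 21791353, with 1.55% in D.vir. At the last of these the highest species had 28.6%. Of the 101 sites under the limit in at least 1 species, 26 were under it in 1 species alone, namely 11 in D.vir, 8 in D.pse, 4 in D.ana, 2 in D.yak, 0 in D.sim and 1 in D.mel. Since the loci were picked by their editing in D.mel, that choice and a change along the tree cannot be told apart in these counts.

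Along the tree, the differences were largest in the pairs with the earliest branches when the larger of the sexes was used. In the phylogeny D.mel and D.sim are closest, D.yak branches off before them, then D.ana, D.pse and D.vir. The median absolute difference over the 39 sites was 5.3 percentage points between D.sim and D.mel, and 4.1 to 4.3 between D.yak and either of them. It was 4.4 to 6.85 in the pairs of D.ana with the 3 nearer species, 7.25 to 7.95 in the 4 pairs of D.pse with nearer species, and 8.05 to 10.4 in the 5 pairs of D.vir. Within 1 sex the order held in part. In males the median absolute difference from D.mel was 6.7 percentage points in D.vir (33 sites), 7.8 in D.pse (37), 6.8 in D.ana (32), 4.2 in D.yak (36) and 5.1 in D.sim (34). In females it was 2.95 in D.vir (24 sites), 4.45 in D.pse (27), 6.05 in D.ana (29), 2.4 in D.yak (31) and 2.75 in D.sim (33). D.yak thus had the smallest difference from D.mel in either sex, and D.vir did not have the largest. Against D.sim, males had 8.575 percentage points in D.vir, 7.25 in D.pse, 5.025 in D.ana, 3.9 in D.yak and 5.1 in D.mel. Against D.yak they had 8.925 in D.vir, 8.375 in D.pse, 4.15 in D.ana and 4.2 in D.mel. In these lists D.vir, D.pse and D.ana followed the order of the tree, and D.mel did not. Against D.ana, males had 8.525 in D.vir and 9.25 in D.pse, against that order. In females D.vir had 4.05 against D.sim and 3.9 against D.yak, below D.pse (5.45 and 7.9) and D.ana (5.2 and 5.9). The pairs share species, the sites differ between the sexes, and no test was applied to the order. D.vir, D.pse and D.ana are also the species with the second round of sequencing and primers of their own. Early branching and assay can therefore not be told apart in these differences.

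**Figure D2:**
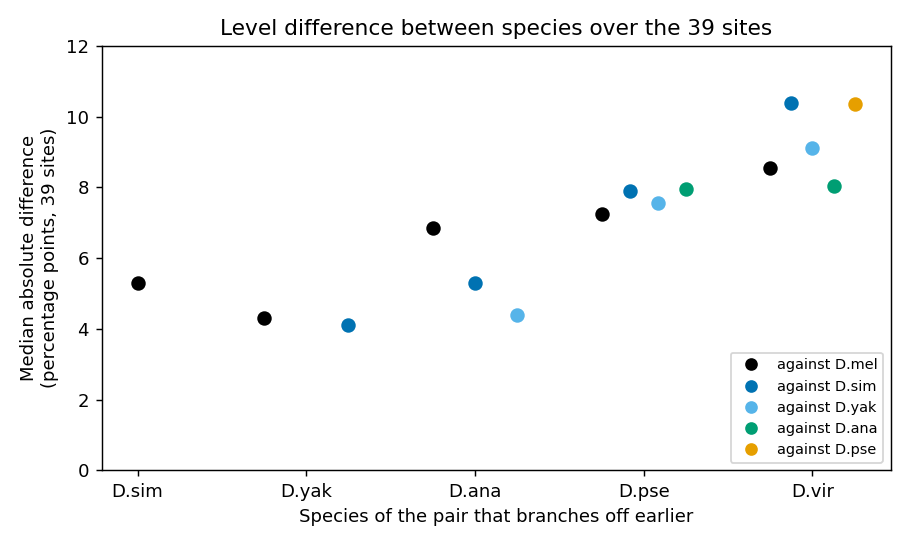
Median absolute difference in editing level (y axis, percentage points) over the 39 sites for the 15 species pairs, grouped on the x axis by the species of the pair that branches off earlier and coloured by the other species. The 5 D.vir pairs lie between 8.05 and 10.4, and the pair of D.sim and D.mel lies at 5.3, above both D.yak pairs with D.mel and D.sim.

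The differences ran in both directions. The median difference from D.mel was -1.95 percentage points in D.vir, 1.2 in D.pse, 1.05 in D.ana, 0.60 in D.yak and 0.75 in D.sim. D.mel was the highest species at 0 of the 39 sites and D.pse at 11, while D.vir was the lowest at 12 and the highest at 8. Set against the span of D.yak, D.sim and D.mel, D.vir was above it at 10 sites, below it at 18 and within it at 11. D.ana was above the span at 12 and below it at 11, and D.pse was above it at 14 and below it at 12. The range over D.yak, D.sim and D.mel had a median of 7.2 percentage points.

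A shift shared by all of D.vir, D.pse and D.ana was rare. They all stood below the lowest nearer species at 3 sites, at 2L positions 6452387 and 20346120 and at 2R position 20802382. They all stood above the highest nearer species at 1 site, 3L position 4369422. At 2L position 6452387, on the minus strand, the levels were 18.9% in D.vir, 22.7% in D.pse, 23.4% in D.ana, 49.0% in D.yak, 36.9% in D.sim and 30.3% in D.mel. The D.pse value came from females, and in males D.pse had 13.4%, so D.vir, D.pse and D.ana also stood below the nearer species within males. In females D.pse (22.7%) and D.ana (20.95%) were above the nearer species at this site (8.9% to 20.05%), and D.vir had no level. The shift was thus seen in males and not in females. At 2L position 20346120 the D.ana value, 10.8%, came from females and was set against male values of the nearer species. In females alone D.pse (5.2%) and D.ana (10.8%) were above the nearer species there (2.55% to 3.6%), and D.vir (2.6%) was within their span, so the shared shift was not seen in females. For D.mel these values are of the stock. In males of the DGRP lines, line means were 1.2% to 4.35% at 2R position 20802382, below D.vir (4.65%) and D.pse (4.5%). At 2L position 6452387 they were 16.8% to 38.3%, and lines 774 (16.8%) and 441 (21.15%) were below D.pse and D.ana. At both sites the shift thus did not hold against every line. At 2L position 20346120 (17.25% to 24.15%) and 3L position 4369422 (26.7% to 31.25%) it held.

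Males had the higher level at most sites in D.yak, D.sim and D.mel, and at 16 of 32 sites in D.pse and 9 of 23 in D.vir. The median male minus female difference was 6.58 percentage points in D.yak (male higher at 29 of 36 sites with both sexes), 4.3 in D.sim (32 of 36) and 3.95 in D.mel (24 of 31). It was -1.8 in D.vir (9 of 23), -0.1 in D.pse (16 of 32) and 1.1 in D.ana (21 of 30). Over all sites with both sexes, the median was -0.05 in D.vir (211 sites), 0.05 in D.pse (276), 0.15 in D.ana (356), 0.8 in D.yak (409), 1.7 in D.sim (558) and 2.2 in D.mel (721). The share of sites with the higher level in males was 39.1% of the members and 39.3% of all sites with both sexes in D.vir, 50% and 52.5% in D.pse, and 70% and 59.8% in D.ana. It was 80.6% of the members and 68.5% of all sites in D.yak, 88.9% and 74.7% in D.sim, and 77.4% and 77.0% in D.mel. The figures for all sites include the members, and the levels of the sets were not matched, so their differences in percentage points are not directly comparable. Differences between species in these medians were not tested, since each rests on 1 male and 1 female value per site.

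**Figure D3:**
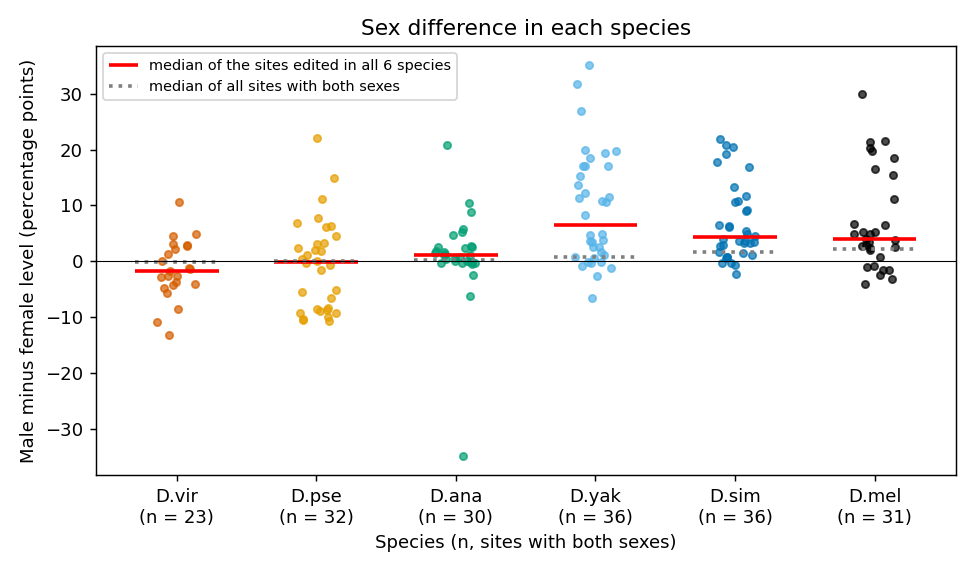
Male minus female editing level (y axis, percentage points) of the sites edited in all 6 species, by species, 1 point per site with both sexes, with the red line at their median and the dotted grey line at the median of all sites with both sexes. The medians are above 3 in D.yak, D.sim and D.mel, near 0 in D.pse and at -1.8 in D.vir, and the lowest point is a D.ana site at -34.8.

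Some sites of this set had far higher levels in males. Male levels were at least 2-fold the female levels in all of D.yak, D.sim and D.mel at 7 of the 26 members with both sexes in these species (26.9%) and at 53 of 294 sites overall (18.0%). These sites were singled out after their values were seen. At X 10640518, 2L 12724897 and 3L 16104689 females were under 2% in some of D.yak, D.sim and D.mel. These sites met the limit there only through males, so the share among the members depends in part on the choice. At X position 10640518 males had 5.75% in D.vir, 25.0% in D.pse, 15.7% in D.yak, 22.8% in D.sim and 21.3% in D.mel. Females had 1.15% in D.vir, 3.0% in D.pse, 8.35% in D.ana, 2.0% in D.yak, 1.95% in D.sim and 1.65% in D.mel. Males were higher in each of the 5 species with both sexes, and the male level was missing in D.ana.

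The autosomal site at 2L position 20346120, on the plus strand, showed the same order. Males had 7.45% in D.vir, 12.9% in D.pse, 30.6% in D.yak, 23.2% in D.sim and 22.9% in D.mel. Females had 2.6% in D.vir, 5.2% in D.pse, 10.8% in D.ana, 3.6% in D.yak, 2.75% in D.sim and 2.55% in D.mel. At 2L position 12724897 males had 6.15% in D.vir, 5.6% in D.pse, 12.7% in D.ana, 12.7% in D.yak, 4.05% in D.sim and 6.5% in D.mel. Females had 1.1% in D.pse, 3.75% in D.ana, 1.2% in D.yak, 0.80% in D.sim and 1.3% in D.mel, with no level in D.vir. In females of 4 species this site was thus under the limit of 2% by which it was chosen, and it entered through males.

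At 3 of the other sites of the 7, the order of the sexes was not the same in every species. At 3L position 16104689 males had 4.6% in D.vir, 16.4% in D.pse, 36.9% in D.yak, 16% in D.sim and 8.05% in D.mel. Females had 7.3% in D.vir, 5.2% in D.pse, 1.8% in D.yak, 2.65% in D.sim and 1.3% in D.mel, so that D.vir had the higher level in females. At 3R position 16790761, on the plus strand, D.vir had 2.55% in males and 5.45% in females, while D.mel had 26.4% in males and 8.0% in females. At 2R position 3389704 D.ana had 2.95% in males and 3.4% in females, while D.mel had 13.5% in males and 2.4% in females. The last of the 7, at 3L position 9662076 on the minus strand, had higher levels in males in each of the 4 species with both sexes, with 24.8% in males and 22.2% in females of D.ana and 24.1% in males and 7.6% in females of D.mel. The widest difference in favour of females was found at X position 6002745 in D.ana, with 46.2% in males and 81.0% in females, whereas males were higher at this site in D.pse, D.yak, D.sim and D.mel.

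The sex difference was tested with limma on log2((level + 0.01) / (1 − level + 0.01)), with the species as the replicate. Both sexes in all 6 species were available at 51 sites with a mean of 1% or more, and 1 of them (1.96%) passed an adjusted p-value of 0.05. Of the 39 members, 11 were in this fit and 0 passed, with 1 at an unadjusted p-value under 0.05. That site was at 2R position 9767879, on the minus strand, where males were higher in all 6 species by 0.44 ± 0.16 on this log2 scale (SE of limma, n = 6 species, adjusted p = 0.230). Its exact sign-flip p-value over the 6 species was 0.03125, two-sided, the smallest that 64 sign patterns can give. Its female level in D.vir, 1.95%, was under the limit, so there it too was kept through males. With both sexes in at least 4 species, 251 sites could be fitted and 11 passed (4.38%), among them 3 of 35 members. These were X 10640518, 2L 12724897 and 2L 20346120, each with a higher level in males in 5 of 5 species with both sexes. Their choice used the same levels. Female levels were under 2% in 3 species at X 10640518 and in 4 species at 2L 12724897, so these sites met the limit there only through males, and the count of 3 supports nothing on its own. At 2L 20346120 females were at 2% or more in all 6 species. The difference there was 2.39 ± 0.37 on the log2 scale (SE of limma, n = 5 species, without D.ana). Its exact sign-flip p-value over these 5 species was 0.0625, two-sided. This site too was picked from the same levels, so these values are a description. The fit over all 6 species could not hold these sites because 1 sex was missing in D.ana or D.vir, and they lie outside the rule for named sites. Species share ancestry and are not independent replicates.

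Sites often had a close neighbour. Another listed site lay within 50 bases of 29 of the 39 sites (74.4%), of 70 of the 101 other sites measured in all 6 species (69.3%) and of 1193 of all 2380 (50.1%). The set was thus near the other measured sites in this respect. By chromosome, 12 of the 39 lay on X, 13 on 2R, 6 on 3L, 4 on 2L and 4 on 3R, while the 140 sites measured in all 6 species had 25 on X, 44 on 2R, 23 on 3L, 21 on 2L, 26 on 3R and 1 on chromosome 4. Within the 39, 12 sites formed 4 groups with neighbours at most 50 bases apart.

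Some close neighbours kept large differences in level, and others did not. At X positions 14893953 and 14893957, 4 bases apart, the levels were 11.3% and 72.1% in D.vir, 21.6% and 79.3% in D.pse, 11.9% and 86.8% in D.ana, 8.75% and 86.3% in D.yak, 17.2% and 85.2% in D.sim, and 16.2% and 86.3% in D.mel. The downstream site was higher by 57.8 to 77.5 percentage points in the 6 species and by 67.3 to 73.6 in the means of the 8 DGRP lines. The third site of the group, 14 bases further at X position 14893971, was at 9.15% to 21.1%, close to the first. At 3L positions 4369422, 4369445 and 4369459 the first site was higher than either neighbour in all 6 species and in all 8 lines. At 3L 4369459, on the minus strand, D.pse had 21.4%, D.vir had 25.7% and D.ana had 2.95%, whereas 3L 4369445 lay between 6.65% and 10.8% in all 6 species. The order of these neighbours thus changed between species, as it did for 2R 20802387 and 20802397 and for X 16376715 and 16376726. From 2R 20802382 to 20802397 the level rose by 31.9 to 55.55 percentage points in the species. In the line means it rose by 0.2 to 3.05.

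**Figure D4:**
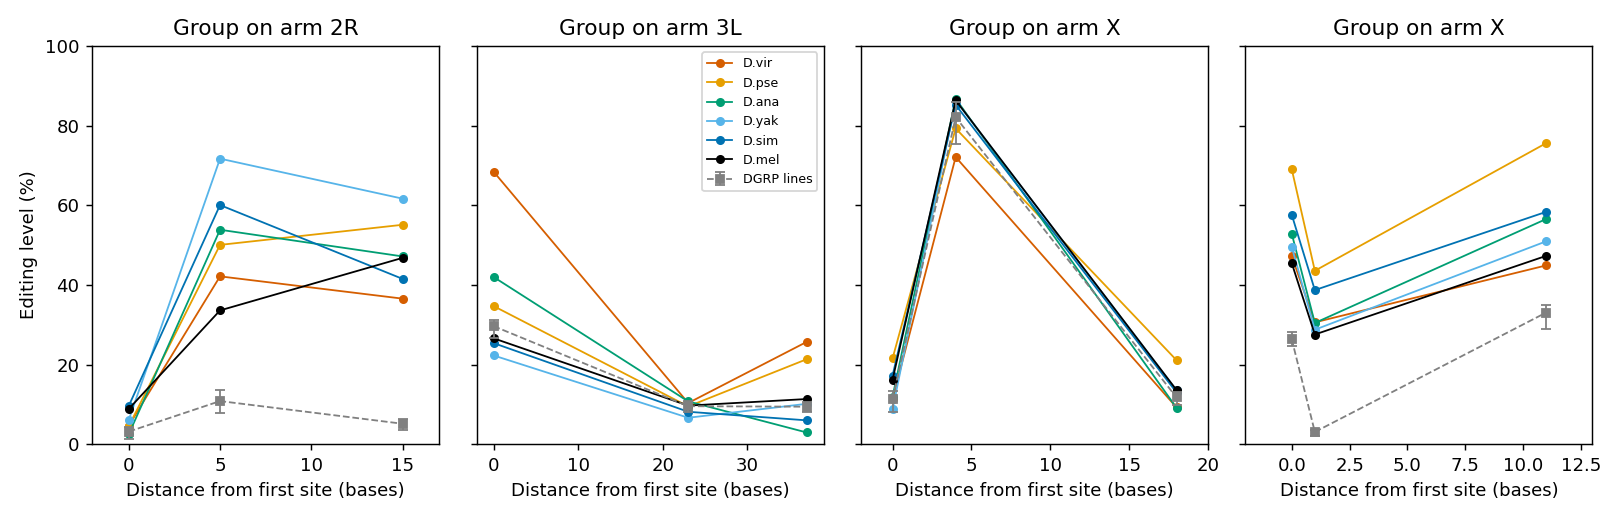
Editing level in percent (y axis) of the sites of 4 close groups against their distance in bases from the first site of the group (x axis), with 1 coloured line per species (larger of the sexes). The grey squares are the mean of the 8 DGRP line means with bars from the lowest to the highest line mean. The lines of the species keep the same peak in the first X group, and the grey squares lie below every species at the last sites of the 2R group and throughout the second X group.

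In the 8 DGRP lines, a level was present in all 16 libraries at 34 of the 39 sites and in none at the other 5. The range of line means over the 34 sites had a median of 7.53 percentage points, with a lowest value of 1.65 and a highest of 47.0, and over the 478 sites in the fit the median was 7.15. At 31 of the 34 sites the range over species, with the larger of the sexes, was larger than the range over lines, and within males this was so at 19 of the 21 sites that also had a male level in all 6 species. The libraries of a line differed by a median of 2.3 percentage points at these sites and by up to 22.6. Line 774 had the widest median difference between its libraries (4.85) and the lowest line mean at 17 of the 34 sites. Levels from lines were not used to choose the sites, so the line effect could be tested.

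Levels differed between lines at 5 of the 34 members (14.7%), and at 92 of all 478 sites in the fit (19.2%), at an adjusted p-value under 0.05 (limma moderated F test, 8 lines with 2 libraries each). The share among the members was thus near the background. Without the whole of line 774, 7 members and 111 of 488 sites passed. More sites passed when only its replicate 1 was left out, but then its replicate 2 alone stood for the line. Replicates 1 and 2 of that line had 14.5% and 1.3% at 2R position 20802387, and 10.2% and 30.9% at X position 10640518. The columns of line 721 carry 1 replicate number, and it is not known that its libraries came from separate flies, so for that line the spread may be technical. The F test shares 1 estimate of the spread over the lines, so this can bear on every call. Without line 721, 4 members and 74 of 478 sites passed, and 3R 14796414 was not among them.

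The sites that passed differed in which lines were high. At 2R position 9697052 the line means ran from 32.6% in line 804 to 79.7% in line 26 (limma adjusted p = 2.13e-05), and the species values given above for this site, 54.9% to 98.0%, extended further up. At 3R position 20501385 the means were 72% in line 26, 75.3% in line 325, 85.5% in line 352, 84.8% in line 441, 77.0% in line 721, 62.2% in line 774, 90.5% in line 786 and 74.9% in line 804 (limma adjusted p = 0.00120). Line 774 had 62.2% ± 8.98 and line 786 had 90.5% ± 0.21 (SD, n = 2 libraries). Lines 352, 441 and 786 were the highest here and also at 3R position 20532273, where the means were 91.3% in line 352, 92.9% in line 441 and 92.8% in line 786. The other lines of that site lay between 82.9% in line 774 and 88.3% in line 721 (limma adjusted p = 0.00957).

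At 2L position 6452387 the line means ran from 16.8% ± 7.07 in line 774 to 38.3% ± 3.96 in line 786 (SD, n = 2 libraries, limma adjusted p = 0.0196). Line 441 had 21.1%, and the remaining lines lay between 30.7% and 33.6%. At 3R position 14796414 lines 352 and 441 had 18.1% and 17.7%, and the other lines lay between 11.4% and 14.2% (limma adjusted p = 0.0351). The first 4 of these 5 sites passed under all 30 alternatives of the fit, and 3R 14796414 passed under 13 of 30, with adjusted p-values between 0.0111 and 0.116. This site had a small range over the species, as given above.

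**Figure D5:**
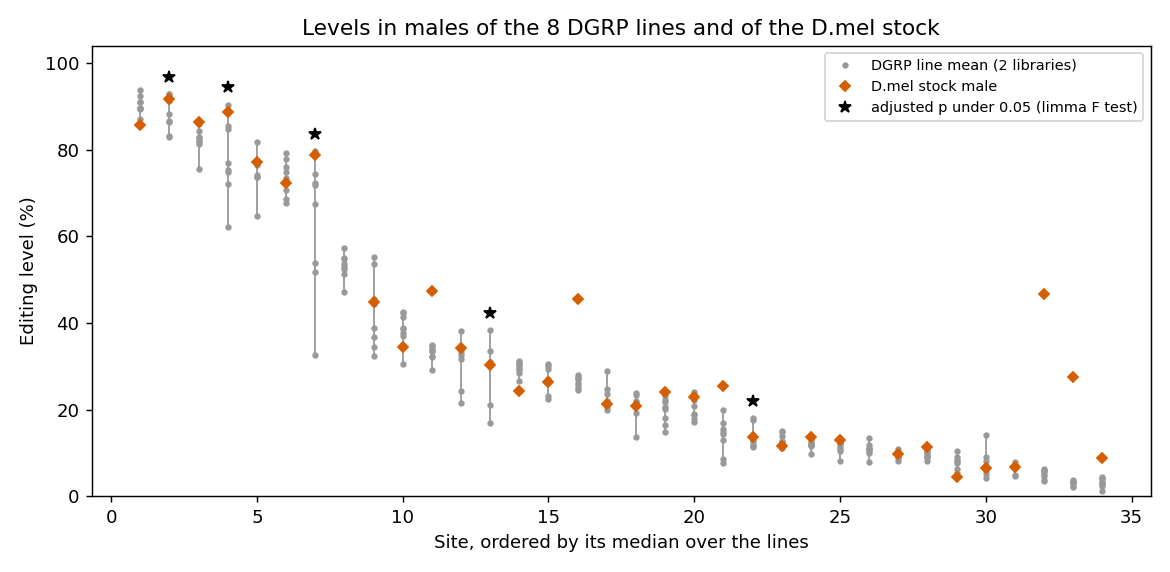
Editing level in percent (y axis) at the 34 sites with DGRP levels, ordered along the x axis by their median over the lines. Grey points are the means of 2 libraries for each of the 8 lines, orange diamonds the D.mel stock males, and stars mark the 5 sites with an adjusted p-value under 0.05. At 4 sites the stock male lies more than 10 percentage points above the highest line.

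Levels of the D.mel stock males lay within the range of the line means at 19 sites, above it at 10 and below it at 3. The remaining 2 of the 34 sites had no stock male level. The gap was over 10 percentage points at 4 sites, all above the lines, and these were singled out after their values were seen. At X position 16376716 the stock male had 27.6%, against line means of 2.05% to 3.7%, and the other 5 species had 28.8% to 43.5%. At X position 16376715, the adjacent base, the stock male had 45.5%, against 24.6% to 28.1% in the lines. At X position 16376726, on the minus strand, it had 47.3%, against 29.1% to 34.9%. At 2R position 20802397 the stock male had 46.8%, against 3.55% to 6.25% in the lines.

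The neighbour at 2R position 20802387 had 33.6% in stock females, with no stock male level, against 7.9% to 13.6% in males of the lines. The site at 2R position 20802225, on the plus strand and 157 bases from 2R position 20802382, had 25.1% in stock females, again with no stock male level, and 47.1% to 57.2% in males of the lines. At both sites the sexes differ between the compared samples, and at 2R 20802225 males and females had 46.95% and 56.95% in D.pse, 51.4% and 49.8% in D.ana, 53.2% and 41.9% in D.yak, and 51.0% and 39.4% in D.sim, so the order of the sexes varied. X 16376716 was nevertheless lower than both of its neighbours, X 16376715 and X 16376726, in all 6 species and in all 8 lines. The stock and the lines were separate samples of different genotypes, and the part of library, genotype, processing and, where only stock females had a level, sex in these gaps cannot be told apart. No test was applied to these differences.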

How the data were processed

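The authors amplified editing loci by microfluidic multiplex PCR, split the reads by barcode (FASTX Toolkit), used TopHat for alignment and kept sites covered by at least 50 reads. Each deposited value is an editing level given as a fraction, without normalization between samples, with 1 value per species and sex and 1 per DGRP library. How replicates and the rounds of sequencing were combined is not given in the sources used here. Positions are in build dm3, named in the submitters' processing notes. In the table of the lines, 16 positions written with the letters NA were restored to match the other tables. Levels were converted to percent, and sites with missing values stayed missing.

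Line and sex effects were fitted over all sites with limma 3.58.1 in R 4.3.3, adding 0.01 to both shares, at a mean level of at least 1% and Benjamini-Hochberg adjustment over all sites in the fit. These fits were tested on simulated data. The other values were computed with Python 3.11.15, numpy 2.4.6, pandas 2.3.3 and scipy 1.17.1. The sites and the rule for naming them were chosen with earlier results of these data known. The named sites are the 5 with the highest level in their lowest species, the 5 with the widest and the 5 with the smallest range over species, those called for a line or sex effect, and the 3 nearest to the limit on either side. Alternatives covered the limit, the sex used, offsets, filters, the rank measure, and each library, line or species left out.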

Additional observations from a re-analysis of the deposited data

Results flagged for a closer look

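For the 34 sites with DGRP levels, the 8 line means were examined for a line far from its nearest neighbour. This was so at 6 sites, each time for the lowest line. Chance alone flags about 1 in 20 independent groups, but the 34 sites share the same 16 libraries and are not independent. The count is thus no test. Line 774 was the lowest at 4 of the 6 sites. Its mean was 13.8% at 2L position 18182220, against 19.2% in the next line. It was 75.5% at X position 14893957, against 81.5%, it was 29.1% at X position 16376726, against 32.2%, and it was 30.6% at X position 17844090, against 37.1%. Line 352 had 64.7% at X position 6002745, against 73.8% in the next line, with libraries that differed by 19.7 percentage points. Line 804 had 9.75% at X position 14893971, against 11.5% in the next line. With the offset of 0.01 used in the report, 0 of these 6 sites passed the limma F test, while 2L 18182220 passed with an offset of 0.05 and without replicate 1 of line 774, and X 6002745 passed without replicate 1 of line 352.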

How the results depend on the processing

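The number of sites edited in all 6 species was 39, and it was 24 with males only and 13 with females only, where 26 members had a male level and 17 a female level in every species, and 2 and 4 of these were under the limit in that sex. The median rank correlation moved by less than 0.1 under each alternative tried. Over the members, line means spanned a median of 7.53 percentage points, and of 5.6 without line 774. With females only, the median member level was 10.3% in D.vir, 21.9% in D.pse, 31.9% in D.ana, 17.4% in D.yak, 20.1% in D.sim and 10% in D.mel. These are lower than with the larger of the sexes in all 6. At a site the female level cannot exceed the larger of the sexes, so this order is largely set by the measure. Leaving out single libraries gave between 4 and 14 members with a line effect, 14 only without replicate 1 of line 774. With a replicate block, in the 7 lines with both numbers, 7 members and 93 of 478 sites passed. The same 7 lines without the block, which leave out line 721, gave 4 members and 74 of 478 sites. All 8 lines gave 5 and 92. Same-numbered libraries deviated together with r over 0.1 in 12 of 21 line pairs (median 0.12, lowest -0.13, highest 0.31). The numbers are not stated to pair libraries of different lines, so the block was kept as an alternative and not as the main fit. Members called for a sex difference numbered 0 with both sexes in all 6 species, 3 with at least 4 species, 2 without D.ana and 1 without D.vir, fits that hold other sites. Depth limits for single levels cannot be given without read counts.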
